A study of Homo sapiens with 16 samples.

Results

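The 2 H3K4me3 region lists of the series, from PC9 cells given osimertinib and from PC9 cells given vehicle, were compared region by region and gene by gene. They were chosen by their labels alone, and every deposited region was kept: 13285 regions with osimertinib and 11621 with vehicle, 24906 of the 59617 regions of the 8 binding libraries analysed here. PC9, an established human lung adenocarcinoma cell line, grows on a mutant, constantly active EGFR, and osimertinib is a drug that blocks that mutant kinase. Both libraries came from unedited (wild type) cells, so they differ by label only in treatment, osimertinib or DMSO vehicle. By its title, the series asks how loss of the pyruvate kinase PKM2 and fatty acid synthesis bear on the response to the drug. There was 1 library a side, so no difference below has a replicate check and none carries a p-value. Dose, exposure time, the type of binding assay and the read depth behind each list are not stated, and the bulk lists cannot tell a weaker mark in each cell from fewer cells that carry it.

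H3K4me3 is trimethylation of lysine 4 of histone H3. It is laid down by the SET1 and MLL (KMT2) methyltransferase complexes and removed by the KDM5 demethylases, and it forms sharp peaks around the starts of active genes, above all at starts rich in unmethylated CpG. H3K4me1, the singly methylated form, lies to the sides of active starts and on enhancers, and is a substrate of KDM1A (LSD1).

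Each region was 2 kb wide, and the deposited signal of a region was used only as its place within its own list, since its scaling is not stated. A percentile of 100 marks the strongest end of a list. A gene was counted at a promoter where the authors' annotation placed a region within 3 kb of one of its starts, and the percentile of its strongest such region was taken. The shift is the percentile with osimertinib minus that with vehicle. Positions are on GRCh38.

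The start sequences below belong to genes whose places in the 2 lists carry the findings. Each is the RefSeq promoter window (GRCh38.p14) from 250 bases before to 50 bases after a gene's start, written 5′ to 3′ on the gene's strand, with every CpG dinucleotide in capitals because CpG content is the feature that set marked starts apart from unmarked ones.

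SPRY4, at chr5:142324198-142324497 (minus strand), and EMG1, at chr12:6970663-6970962 (plus strand), lay in a region of the osimertinib list and in no region of the vehicle list. They are shown as starts of the strongest genes listed with osimertinib only.
SPRY4: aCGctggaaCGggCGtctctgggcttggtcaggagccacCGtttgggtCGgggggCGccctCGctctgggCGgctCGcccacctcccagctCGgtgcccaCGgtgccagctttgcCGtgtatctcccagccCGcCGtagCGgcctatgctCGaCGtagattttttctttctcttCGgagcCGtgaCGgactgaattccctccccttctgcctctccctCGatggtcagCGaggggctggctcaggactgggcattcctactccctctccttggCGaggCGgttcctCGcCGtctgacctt
EMG1: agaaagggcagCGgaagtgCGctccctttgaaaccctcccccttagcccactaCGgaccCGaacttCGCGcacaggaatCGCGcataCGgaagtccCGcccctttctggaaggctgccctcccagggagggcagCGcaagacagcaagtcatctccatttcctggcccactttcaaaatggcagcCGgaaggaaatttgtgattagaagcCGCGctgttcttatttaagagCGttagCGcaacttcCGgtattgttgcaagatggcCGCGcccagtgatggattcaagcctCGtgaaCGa

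INSIG1, at chr7:155297628-155297927 (plus strand), HMGCS1, at chr5:43313363-43313662 (minus strand), and CCNG2, at chr4:77156957-77157256 (plus strand), lay in a vehicle region and in no osimertinib region, the first 2 being sterol synthesis genes.
INSIG1: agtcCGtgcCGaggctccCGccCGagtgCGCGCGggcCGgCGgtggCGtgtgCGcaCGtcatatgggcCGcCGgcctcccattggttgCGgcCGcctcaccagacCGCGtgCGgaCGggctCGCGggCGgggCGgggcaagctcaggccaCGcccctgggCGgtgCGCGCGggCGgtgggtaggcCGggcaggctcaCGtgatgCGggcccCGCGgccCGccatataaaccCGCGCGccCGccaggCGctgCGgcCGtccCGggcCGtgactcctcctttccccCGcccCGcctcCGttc
HMGCS1: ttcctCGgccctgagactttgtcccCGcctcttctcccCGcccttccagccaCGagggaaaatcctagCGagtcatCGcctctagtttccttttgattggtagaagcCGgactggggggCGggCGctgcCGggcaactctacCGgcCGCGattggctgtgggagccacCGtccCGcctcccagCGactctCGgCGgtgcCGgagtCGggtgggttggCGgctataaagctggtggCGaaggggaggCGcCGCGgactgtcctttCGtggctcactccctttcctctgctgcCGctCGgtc
CCNG2: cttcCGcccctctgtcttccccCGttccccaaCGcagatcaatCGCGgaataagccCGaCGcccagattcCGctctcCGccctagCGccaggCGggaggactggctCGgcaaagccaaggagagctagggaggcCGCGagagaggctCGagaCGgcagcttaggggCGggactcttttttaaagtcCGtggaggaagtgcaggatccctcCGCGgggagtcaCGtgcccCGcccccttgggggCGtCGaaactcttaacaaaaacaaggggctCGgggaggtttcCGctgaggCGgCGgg

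ACTG1, at chr17:81512750-81513049 (minus strand), ACLY, at chr17:41918973-41919272 (minus strand), and EPHA2, at chr1:16156020-16156319 (minus strand), lay fully or partly in a region of both lists. They are shown as the strongest start with osimertinib, a start that stood lower with osimertinib and one that stood higher. The strongest osimertinib regions of ACLY and EPHA2 end inside the printed windows, at 41919105 and 16156093, and so cover only part of them.
ACTG1: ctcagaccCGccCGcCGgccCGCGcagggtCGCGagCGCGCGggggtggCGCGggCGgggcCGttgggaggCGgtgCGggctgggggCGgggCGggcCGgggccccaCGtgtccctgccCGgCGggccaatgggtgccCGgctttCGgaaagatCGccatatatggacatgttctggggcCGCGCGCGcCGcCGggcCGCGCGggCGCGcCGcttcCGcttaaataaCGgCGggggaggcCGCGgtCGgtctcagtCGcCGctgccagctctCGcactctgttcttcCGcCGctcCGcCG
ACLY: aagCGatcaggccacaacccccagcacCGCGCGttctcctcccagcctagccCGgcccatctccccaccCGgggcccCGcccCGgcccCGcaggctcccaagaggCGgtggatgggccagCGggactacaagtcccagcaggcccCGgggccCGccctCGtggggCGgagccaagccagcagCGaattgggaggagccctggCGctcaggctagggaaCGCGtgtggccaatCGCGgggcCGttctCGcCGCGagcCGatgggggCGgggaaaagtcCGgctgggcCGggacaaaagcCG
EPHA2: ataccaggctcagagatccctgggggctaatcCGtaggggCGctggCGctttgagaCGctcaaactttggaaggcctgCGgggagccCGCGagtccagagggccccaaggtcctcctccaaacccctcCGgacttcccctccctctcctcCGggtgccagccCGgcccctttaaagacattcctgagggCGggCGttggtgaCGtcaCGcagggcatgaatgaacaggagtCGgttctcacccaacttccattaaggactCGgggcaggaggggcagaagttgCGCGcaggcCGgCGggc

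**Figure D1:**
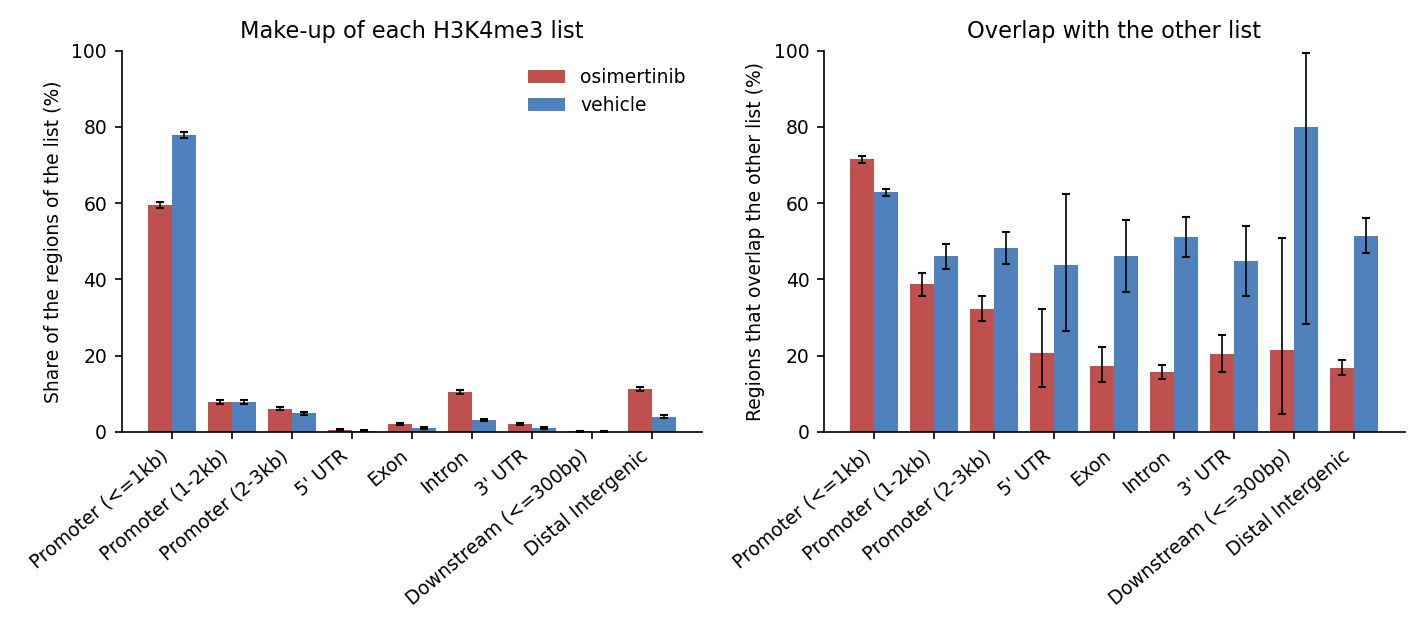
Left, share of the regions of each H3K4me3 list in each annotation class (%). Right, share of the regions of each class that overlap a region of the other list by at least 1 bp (%). Bars are the osimertinib (red) and vehicle (blue) lists, 1 library each, and error bars are exact 95% intervals for counting error. Introns and distal intergenic sites made up 10.4% and 11.3% of the osimertinib list, against 3.15% and 3.99% of the vehicle list.

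Both lists lay mainly at gene starts, the osimertinib list less so. Promoters made up 73.5% of the regions with osimertinib (72.7 to 74.2, exact 95% interval for counting error) and 90.5% with vehicle (89.9 to 91.0), a difference of -17.0 percentage points (-18.0 to -16.1, Newcombe interval). The gap lay in the regions within 1 kb of a start, 59.5% of the osimertinib list and 77.8% of the vehicle list. The share between 1 and 2 kb was 7.85% with osimertinib and 7.84% with vehicle. Introns held 1381 regions with osimertinib and 366 with vehicle, and distal intergenic sequence held 1503 and 464. Weighed by signal, promoters held 83.7% of the summed signal of the osimertinib list and 96.2% of that of the vehicle list. Sites outside promoters had a median percentile of 28.6 in the osimertinib list and 19.4 in the vehicle list. Those without overlap with the other list were weak in both, with medians of 23.9 with osimertinib and 14.4 with vehicle. Those that overlapped a region of the other list had a median of 56.5 with osimertinib and 26.4 with vehicle.

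The marked starts were checked against cell type markers, and those of epithelium were present. Of 24 epithelial and lung adenocarcinoma genes, 0 had a promoter region with osimertinib only, 3 with vehicle only and 14 in both lists. The keratin genes KRT8, KRT18, KRT19 and KRT7, which code for intermediate filaments of simple epithelia, ranked between 7 and 65 of 13285 with osimertinib and between 5 and 46 of 11621 with vehicle. Of 14 fibroblast and endothelial markers, 0 had a promoter region in either list. Of 14 leukocyte markers, 1 was listed with osimertinib only, 3 with vehicle only and 0 in both, and the defining genes PTPRC, CD3E, CD14 and MS4A1 had no promoter region in either. The lung lineage factor NKX2-1 and the surfactant genes SFTPB and SFTPC had none either.

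The 2 lists shared their strongest sites and differed in their weak ones. With osimertinib, 52.0% of the regions overlapped a vehicle region, and with vehicle 59.6% overlapped an osimertinib region. In the strongest decile of each list the overlap was 88.2% with osimertinib (86.3 to 89.9) and 93.7% with vehicle (92.2 to 95.04). In the weakest decile it was 8.73% with osimertinib (7.27 to 10.4) and 28.8% with vehicle (26.2 to 31.5). Over the 6910 osimertinib regions that overlapped a vehicle region, the rank correlation of signal between lists was 0.63 (Spearman, across sites, a description with no p, since neighbouring sites are not independent and both libraries come from the same line). Only 2.93% of the strongest decile with osimertinib, and 1.72% with vehicle, lay over 3 kb from any region of the other list.

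**Figure D2:**
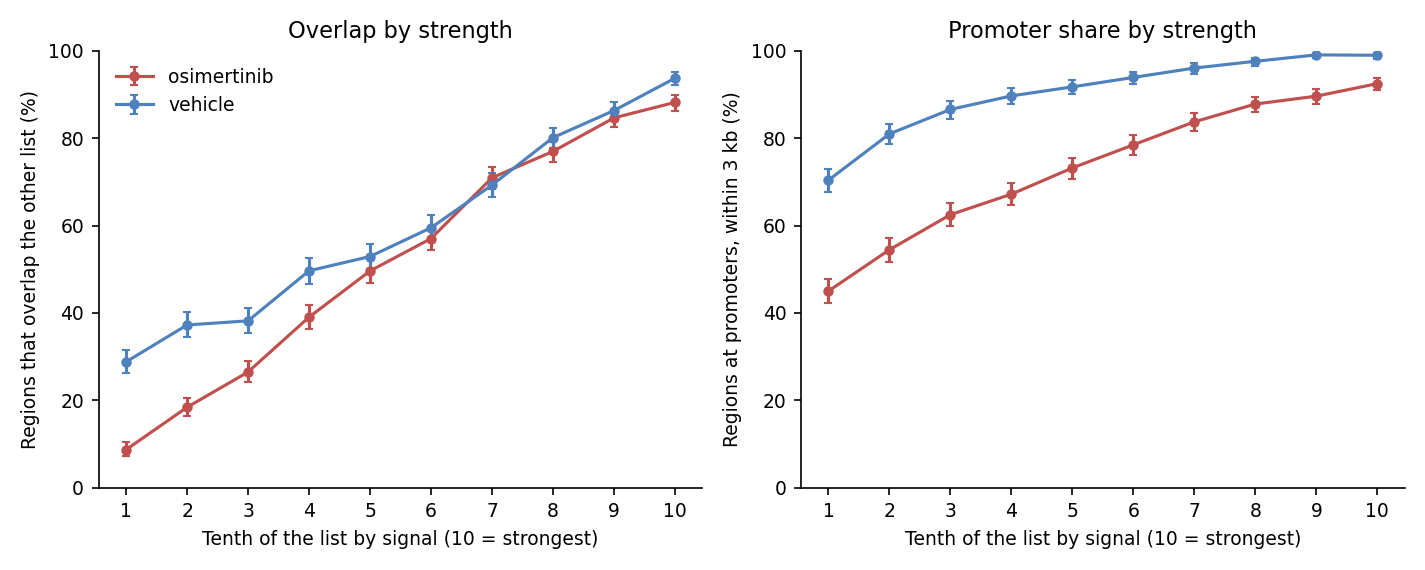
Share of regions that overlap the other list by at least 1 bp (left) and share of regions at promoters (right), for each decile of a list by signal, 10 being the strongest. Points are the osimertinib (red) and vehicle (blue) lists, with 95% exact intervals for counting error. Overlap climbs to 88.2% with osimertinib and 93.7% with vehicle in decile 10, and the promoter share with osimertinib is below that with vehicle in all 10 deciles.

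Outside promoters the difference ran one way. Of the 3527 osimertinib regions there, 16.8% overlapped a vehicle region, while 552 of the 1105 vehicle regions overlapped an osimertinib region. The regions with no overlap numbered 2935 with osimertinib and 553 with vehicle. At promoters the counts ran the other way, 3440 with osimertinib and 4144 with vehicle. Of all osimertinib regions without overlap, 24.9% spanned an annotated start and 46.0% lay more than 3 kb from one. Of the vehicle regions without overlap, 58.8% spanned a start and 11.8% lay more than 3 kb from one.

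**Figure D3:**
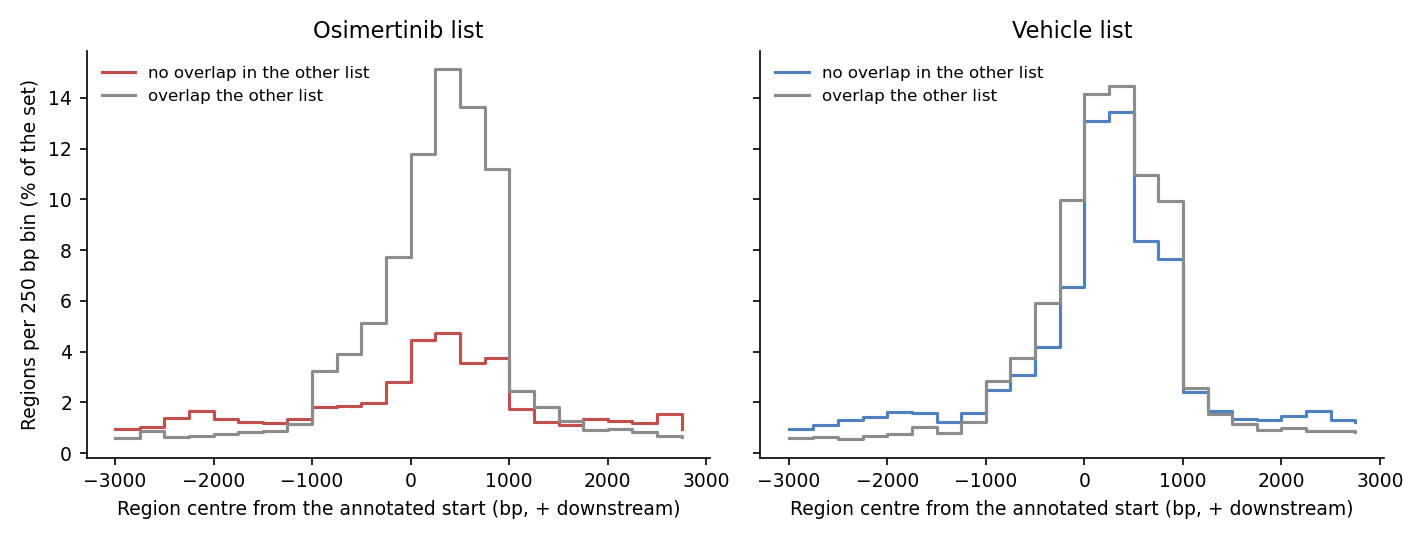
Distance of region centres from the annotated start (bp, positive downstream), as the share of each set per 250 bp bin (%), for the osimertinib list (left) and the vehicle list (right). Grey lines are regions that overlap the other list and coloured lines those that do not. Vehicle regions without overlap peak just downstream of the start like the overlapping ones, while the osimertinib regions without overlap form a lower peak there.

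Where both lists marked the same start, the marked stretch was mostly centred a little downstream of the start in both. Of all overlapping regions, 71.7% with osimertinib and 72.0% with vehicle spanned a start. For 5001 overlapping pairs assigned to the same transcript, the region centre lay a median of 316.5 bp downstream of the start with osimertinib and 229.5 bp with vehicle. The osimertinib centre was the more downstream of the pair in 55.3% of them, with a median offset of 46 bp, which is small beside the region width of 2 kb.

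In all, 9819 genes had an H3K4me3 promoter region in at least 1 list. Of these, 1723 (17.5%) were listed with osimertinib only, 2695 (27.4%) with vehicle only and 5401 (55.0%) in both. Many single-list genes had a region of the other list close by, assigned to a neighbour. Those with none within 3 kb numbered 1178 with osimertinib only (12.0%) and 2138 with vehicle only (21.8%). They had a median percentile of 28.6 for the osimertinib genes and 37.2 for the vehicle genes, and 9 with osimertinib and 17 with vehicle stood at percentile 90 or above.

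The strongest promoters listed with osimertinib only, with no vehicle region within 3 kb, belonged to RPS2 (a protein of the small ribosomal subunit), NOXO1 (an organiser of an NADPH oxidase) and CYP1B1 (a cytochrome P450). They stood at percentiles of 99.8, 96.1 and 94.8. The RPS2 region ranked 21 of 13285, and the nearest vehicle region lay 6954 bp away. NOXO1 is a close neighbour of RPS2 on chromosome 16, and its nearest vehicle region lay 3717 bp away. The single RefSeq promoter window of NOXO1 lay in no region of either list. CYP1B1 was more isolated, with the nearest vehicle region 147401 bp away. The pseudogenes RPL10P2 and FOXO1B, the noncoding RNA gene LINC-PINT, EMG1 (ribosome assembly), MYEOV, PNP (purine salvage) and SPRY4 followed, from 93.9 down to 87.8. LINC-PINT has a second identifier in the files, with overlapping regions at 94.8 with osimertinib and 97.8 with vehicle, so that gene also carried the mark with vehicle. SPRY4, whose start is printed above, is a Sprouty feedback inhibitor of receptor tyrosine kinase signalling. Its region stood at percentile 87.8, and the nearest vehicle region lay 213178 bp away.

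Among promoters listed with vehicle only, ARL6IP6 and RHBDD3 stood at percentiles 97.9 and 97.6, with the nearest osimertinib region 380171 and 334991 bp away. CCNG2, which codes for cyclin G2, a cyclin found in cells that leave the cycle, stood at 97.1, with the nearest osimertinib region 79778 bp away. VASN, CDC42EP4 (a CDC42 effector), PTPN14 (a phosphatase that restrains YAP), WNT9A (a Wnt ligand), PSCA and RAB6A (a Golgi trafficking GTPase) stood from 96.6 down to 94.4. The single RefSeq promoter window of VASN lay in no region of either list. INSIG1, which holds the sterol sensor SCAP in the endoplasmic reticulum, stood at 93.1, ranked 803 of 11621, and had its nearest osimertinib region 292864 bp away.

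At 5052 genes the promoter regions of the 2 lists overlapped, and the rank correlation of their percentiles was 0.67 (Spearman, across genes, with no p). The median shift was -0.46 points, with quartiles of -11.1 and 10.04, and 2412 of them (47.7%) stood higher with osimertinib. A shift of at least 25 points upward was found for 524 genes (10.4%) and downward for 490 (9.70%). The strongest regions of the 2 lists overlapped each other at 4719 of the 5052 genes. Because a region can also be assigned to a neighbouring gene, the strongest region of any gene within 3 kb was taken as well: 422 genes then stood higher and 486 lower by 25 points, among them 389 of the 524 and 459 of the 490.

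**Figure D4:**
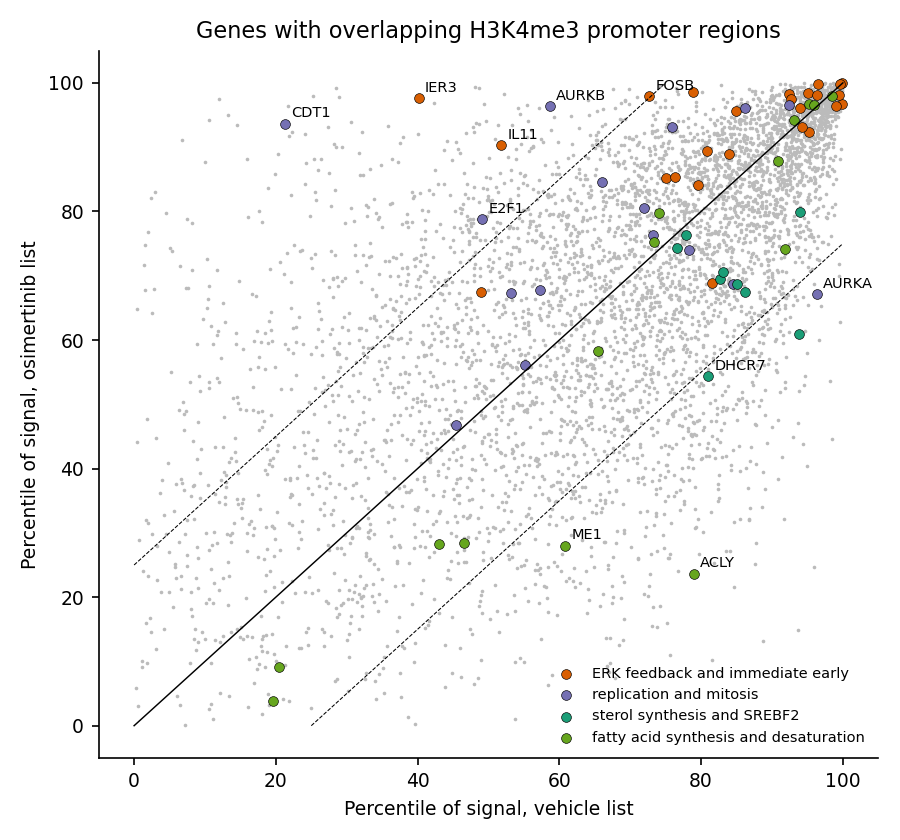
Percentile of signal of each gene's strongest promoter region within the osimertinib list (vertical axis) against the vehicle list (horizontal axis), for the 5052 genes with overlapping regions (grey points). Coloured points are members of 4 gene groups, some of them named. The solid line marks equal percentiles and the dashed lines a shift of 25 points. All 9 sterol genes lie below the solid line, and 13 of the 16 replication and mitosis genes lie above it.

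Of the 10 largest downward shifts, 8 did not depend on neighbouring genes. ANLN, which codes for anillin, an actin-binding protein of the cleavage furrow, stood at 13.1 with osimertinib and 88.7 with vehicle. Its single RefSeq promoter window lay in an osimertinib region and in no vehicle region, so the vehicle value does not describe that start. PUS10 (a pseudouridine synthase) stood at 24.7 with osimertinib and 95.9 with vehicle. NPM1, which codes for the nucleolar protein nucleophosmin, stood at 10.2 with osimertinib and 81.5 with vehicle, and its strongest regions in the 2 lists started 2915 bp apart. KCTD3, FAM76B, STAU2 (an RNA-binding protein), ZBTB2 and ABHD4 (a lipid hydrolase) stood between 7.45 and 32.1 with osimertinib and between 67.9 and 91.7 with vehicle. The KCTD3 window lay in no region of either list, and STAU2 had no window to check. For all 8 genes the values were the same when neighbours within 3 kb were counted. The remaining 2 did. With neighbours counted, LPXN stood at 79.6 with osimertinib and 93.7 with vehicle, and ASB3 at 86.3 with osimertinib and 75.6 with vehicle.

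Of the 10 largest upward shifts, 8 had a stronger vehicle region of a neighbour within 3 kb. RPS25, a ribosomal protein gene, stood at 97.4 with osimertinib and 12.0 with vehicle, but a neighbouring vehicle region within 3 kb stood at 47.7. Among the other 9, the U6 and 5S RNA loci RNU6-118P and RNA5S6 and the pseudogene CD83P1 stood at 94.3, 76.7 and 83.0 with osimertinib and at 10.6, 1.96 and 2.90 with vehicle. With neighbours counted, RNU6-118P stood at 94.3 with osimertinib and 21.1 with vehicle, and the values of RNA5S6 and CD83P1 were the same as before. For ANO6, GTPBP1, MYL6, ZNF90P2, CCNL2 and RNU7-26P the shifts with neighbours counted ran from -3.75 to 19.4 points.

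Sterol synthesis genes stood lower with osimertinib. Of 26 genes of the pathway and its SREBF2 control, 2 had a promoter region with osimertinib only, 8 with vehicle only and 10 in both. Those were 10%, 40% and 50% of the genes in a list, beside 17.5%, 27.4% and 55.0% of all promoter genes. The 9 with overlapping regions had a median percentile of 69.4 with osimertinib and 83.1 with vehicle, a median shift of -14.1 points, and 0 of the 9 stood higher with osimertinib. Among all overlapping genes 47.7% did. Over all genes at a mean percentile between 70 and 80 the median shift was -2.20 points and the lower quartile -14.1, so the group's median sat at that quartile. DHCR7, which catalyses the last step to cholesterol, stood at 54.3 with osimertinib and 81.02 with vehicle. FDPS (farnesyl diphosphate synthase) stood at 67.5 with osimertinib and 86.2 with vehicle. The 8 listed with vehicle only had no osimertinib region within 3 kb. Among them INSIG1 stood at 93.1 and HMGCS1 (HMG-CoA synthase) at 92.6. The count of members that stood higher was 1 of 9 with neighbours counted.

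Fatty acid synthesis genes leaned the same way by a smaller amount. Of 31 genes, 1 was listed with osimertinib only, 8 with vehicle only and 15 in both. The vehicle only share was 33.3% of those in a list, beside 27.4% of all promoter genes. The 15 had a median shift of -7.05 points, with 5 standing higher with osimertinib. With neighbours counted the median shift was -11.4. Over all genes at a mean percentile between 70 and 80 the quartiles of the shift were -14.1 and 11.1, so the group's median lay within the usual spread. ACLY, which makes cytosolic acetyl-CoA from citrate, stood at 23.7 with osimertinib and 79.0 with vehicle. ME1 (malic enzyme, a source of NADPH) stood at 28.0 with osimertinib and 60.8 with vehicle. HACD2, a dehydratase of very long chain elongation, stood at 74.2 with osimertinib and 91.8 with vehicle. The fatty acid synthase gene FASN, the elongase gene ELOVL6 and the acyl-CoA synthetase gene ACSL3 were at the strong end of both lists, at 96.7, 94.2 and 97.9 with osimertinib and at 95.2, 93.2 and 98.4 with vehicle. SCD5, ACACA and ACSS2, which stood at 61.04, 52.0 and 46.5 with vehicle, had their nearest osimertinib regions 83283, 407566 and 12052 bp away.

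Most genes downstream of EGFR and ERK that were in both lists stood higher with osimertinib. Of 40 feedback and immediate early genes, 2 were listed with osimertinib only, 4 with vehicle only and 25 in both, and 19 of the 25 stood higher with osimertinib, with a median shift of 4.68 points. The single-list shares were 6.45% with osimertinib only and 12.9% with vehicle only, beside 17.5% and 27.4% of all promoter genes. Among all overlapping genes 47.7% stood higher. The promoters of this group are strong, with a median percentile of 96.4 with osimertinib and 92.3 with vehicle. Over all genes at a mean percentile of 90 to 100 the median shift was -0.22 points, with quartiles of -2.66 and 2.14. FOSB, an AP-1 subunit, stood at 98.0 with osimertinib and 72.7 with vehicle. PHLDA1 stood at 98.6 with osimertinib and 78.8 with vehicle. DUSP6, the phosphatase that switches ERK off, stood at 85.1 with osimertinib and 74.98 with vehicle, and the cyclin D1 gene CCND1 at 98.3 with osimertinib and 92.3 with vehicle. IER3 and IL11 stood at 97.6 and 90.4 with osimertinib and at 40.1 and 51.8 with vehicle, but vehicle regions within 3 kb stood at 72.9 and 71.5. SPRY4 and ETV5 (an ETS factor) were listed with osimertinib only, and EGR1 and ATF3 with vehicle only at 80.5 and 63.6, each with no region of the other list within 3 kb. DUSP1 went the other way, at 68.9 with osimertinib and 81.5 with vehicle.

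Receptor and ligand genes in both lists mostly stood lower with osimertinib: 2 of the 11 with overlapping regions stood higher, with a median shift of -4.74 points. Of all overlapping genes 47.7% stood higher. At a mean percentile of 80 to 90 the quartiles of the shift were -8.60 and 7.58, so the group's median lay within the usual spread. EGFR itself stood at 99.6 with osimertinib and 99.8 with vehicle, and ERBB2 at 87.5 with osimertinib and 88.2 with vehicle. EPHA2, an ephrin receptor, stood at 94.8 with osimertinib and 61.6 with vehicle. DDR1 (a collagen receptor), IGF1R and ERBB3 stood at 57.1, 45.6 and 85.8 with osimertinib and at 89.6, 73.8 and 97.0 with vehicle. FGFR3 and IGFBP3 were listed with vehicle only, at 76.7 and 66.3, and FGFR1 with osimertinib only, at 20.3. MET and AXL had no promoter region in either list.

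Replication and mitosis genes in both lists stood higher with osimertinib more often than not. Of 40 genes, 7 were listed with osimertinib only, 7 with vehicle only and 16 in both, and 13 of the 16 stood higher with osimertinib, with a median shift of 9.25 points. The osimertinib only and vehicle only shares were both 23.3% of those in a list, beside 17.5% and 27.4% of all promoter genes. Of all overlapping genes 47.7% stood higher, and at a mean percentile of 70 to 80 the median shift was -2.20 with an upper quartile of 11.1. AURKB, the kinase of the chromosomal passenger complex, stood at 96.4 with osimertinib and 58.7 with vehicle. E2F1, a driver of S phase genes, stood at 78.8 with osimertinib and 49.1 with vehicle. CDT1, which loads the replicative helicase, stood at 93.7 with osimertinib and 21.3 with vehicle, with the strongest regions starting 5255 bp apart. PCNA (the replication clamp) and MKI67 stood at 93.1 and 84.5 with osimertinib and at 75.9 and 66.1 with vehicle. AURKA, the centrosomal kinase, went the other way, at 67.1 with osimertinib and 96.3 with vehicle. RFC4 and RFC2, subunits of the clamp loader, were listed with osimertinib only, at 74.9 and 71.1, and CCNB1 (cyclin B1) with vehicle only, at 71.6.

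**Figure D5:**
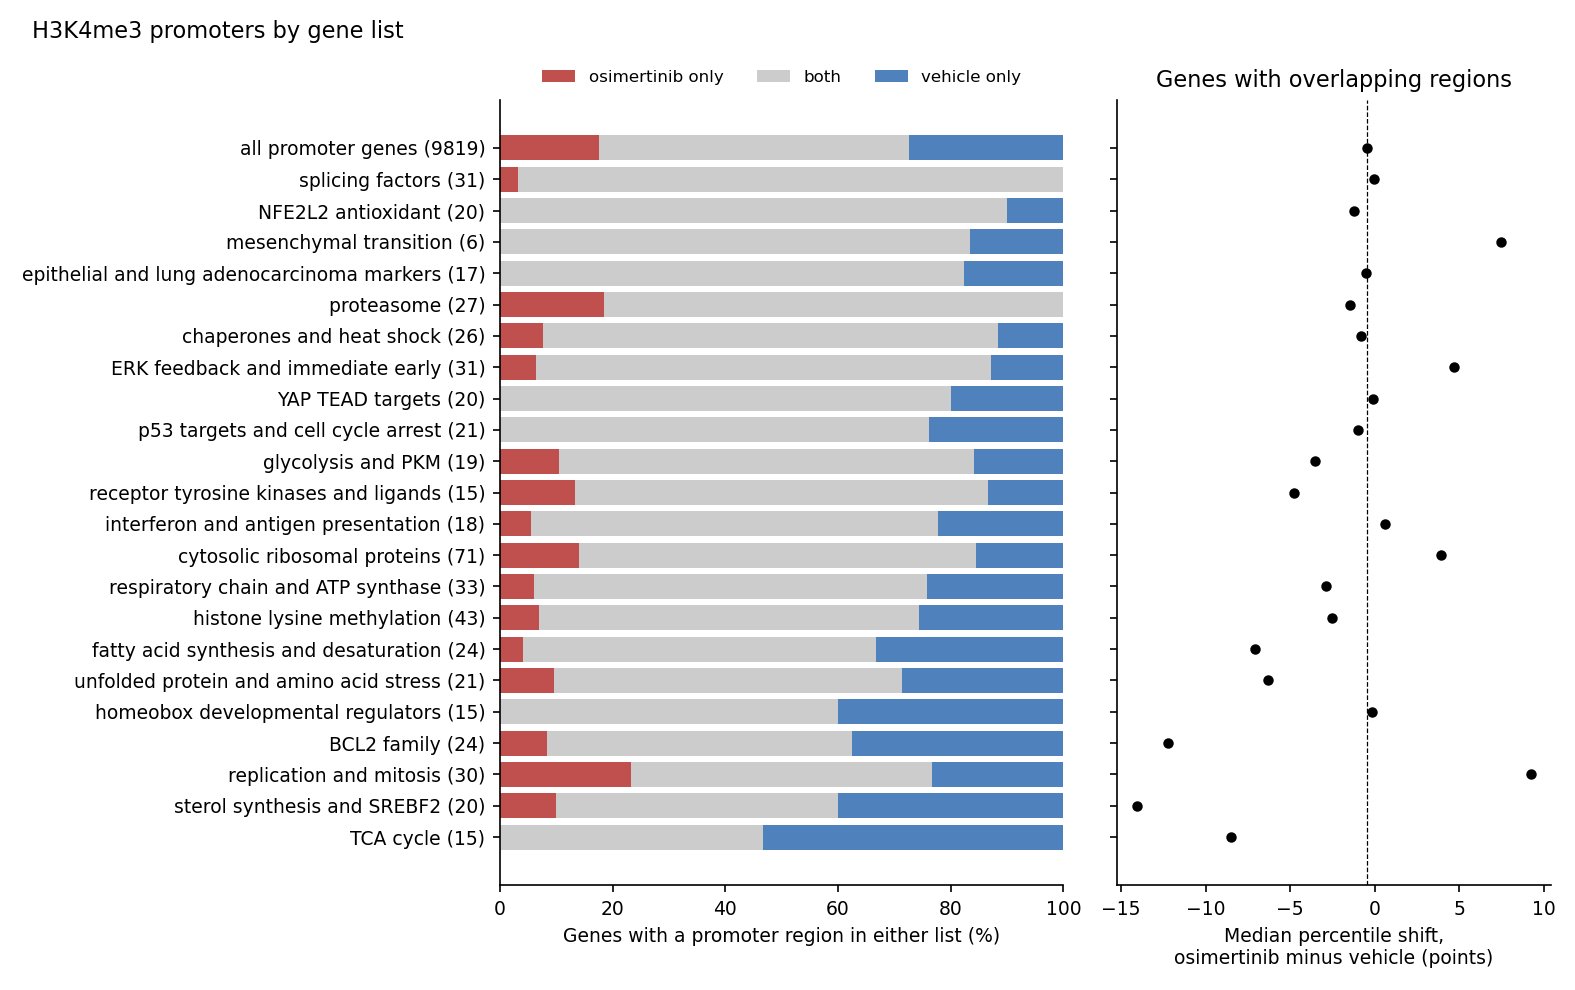
Left, share of each gene group's promoter genes listed with osimertinib only (red), in both lists (grey) and with vehicle only (blue), with the number of genes having a region in either list in brackets and all promoter genes in the top row. Right, median percentile shift, osimertinib minus vehicle, of the genes with overlapping regions, with a dashed line at -0.46, the value for all genes. Sterol synthesis and BCL2 family genes sit lowest, at -14.1 and -12.2, and replication and mitosis genes highest, at 9.25.

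Over all promoter genes, 17.5% were listed with osimertinib only, 27.4% with vehicle only and 55.0% in both. Of 23 TCA cycle genes, 0 were listed with osimertinib only, 8 (53.3% of those in a list) with vehicle only and 7 in both, and 1 of the 7, the citrate synthase gene CS, stood higher with osimertinib (80.6, against 69.9 with vehicle). MDH1, the cytosolic malate dehydrogenase gene, stood at 73.9 with osimertinib and 89.4 with vehicle. Respiratory chain and ATP synthase genes had 2 with osimertinib only, 8 with vehicle only and 23 in both, with a median shift of -2.90. Their vehicle only share, 24.2%, was near that of all promoter genes. Among glycolysis genes, 2 were listed with osimertinib only, 3 with vehicle only and 14 in both. The glucose transporter gene SLC2A1 stood at 71.4 with osimertinib and 95.02 with vehicle, and the lactate transporter gene SLC16A1 at 38.5 with osimertinib and 71.1 with vehicle.

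Most housekeeping genes were in both lists, beside 55.0% of all promoter genes. Splicing factors had 1 gene with osimertinib only, 0 with vehicle only and 30 (96.8%) in both, with a median shift of -0.01 (-0.40 with neighbours counted). The proteasome had 5 with osimertinib only, 0 with vehicle only and 22 (81.5%) in both. Its members in both lists differed in both directions: PSMC6 and PSMB5 stood at 78.0 and 81.5 with osimertinib and at 43.1 and 48.7 with vehicle, while PSMD7 and PSMC3 stood at 49.6 and 39.9 with osimertinib and at 83.2 and 73.3 with vehicle. Cytosolic ribosomal protein genes had 10 with osimertinib only, 11 with vehicle only and 50 (70.4%) in both. Of the 48 with overlapping regions 32 stood higher with osimertinib, with a median shift of 3.91. The largest differences there that neighbours did not alter were RPS3, at 93.2 with osimertinib and 65.95 with vehicle, and RPL24, at 41.8 with osimertinib and 91.4 with vehicle. Chaperone genes had 2 with osimertinib only, 3 with vehicle only and 21 (80.8%) in both, and the mitochondrial HSP70 gene HSPA9 stood at 73.5 with osimertinib and 21.5 with vehicle.

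Among unfolded protein and amino acid stress genes, 3 of the 13 with overlapping regions stood higher with osimertinib, beside 47.7% of all such genes. Their median shift was -6.28. In all 2 were listed with osimertinib only, 6 with vehicle only and 13 in both, and the vehicle only share of 28.6% was near the 27.4% of all promoter genes. TRIB3 and EDEM1 stood at 65.6 and 72.1 with osimertinib and at 89.9 and 94.3 with vehicle, and PDIA6 and DDIT4 were listed with vehicle only, at 88.2 and 84.2. NFE2L2 antioxidant genes had 0 with osimertinib only, 2 (10%) with vehicle only and 18 in both, and 4 of the 18 stood higher with osimertinib, with a median shift of -1.21. Relative to the median of all genes that was -0.74 points, but 0.56 points with ranks among promoter regions and 0.68 with summed signal. GCLM, a subunit of the enzyme that starts glutathione synthesis, stood at 60.6 with osimertinib and 94.1 with vehicle. BCL2 family and apoptosis genes had 2 with osimertinib only, 9 (37.5%) with vehicle only and 13 in both. Of the 12 with overlapping regions 4 stood higher with osimertinib, with a median shift of -12.2 that was -5.53 with neighbours counted. BCL2 stood at 48.0 with osimertinib and 12.7 with vehicle, and APAF1, the apoptosome scaffold, at 49.5 with osimertinib and 82.2 with vehicle. Targets of p53 and arrest genes had 0 with osimertinib only, 5 (23.8%) with vehicle only and 16 in both. Of the 16, 6 stood higher with osimertinib, with a median shift of -0.96. Relative to all genes that was -0.49 points, but 0.88 with ranks among promoter regions and 0.70 with summed signal. CDKN1A (p21) was listed with vehicle only, at 80.1.

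The enzymes that write and erase histone methylation were mostly marked with both treatments. Of 46 genes, 3 were listed with osimertinib only, 11 (25.6% of those in a list) with vehicle only and 29 (67.4%) in both. Over all promoter genes 27.4% were listed with vehicle only and 55.0% in both, so the vehicle only share was near that of all. KMT2A, KMT2C and KMT2D, catalytic subunits of the MLL complexes, stood at 93.7, 92.6 and 95.7 with osimertinib and at 95.8, 97.4 and 98.2 with vehicle. KDM5A, which removes H3K4me3, stood at 20.4 with osimertinib and 72.0 with vehicle, and its paralogue KDM5B at 84.3 with osimertinib and 98.6 with vehicle. KDM1A stood at 43.0 with osimertinib and 81.7 with vehicle. EHMT2, an H3K9 methyltransferase gene, was listed with osimertinib only, at 63.9, and KDM7A and NSD1 with vehicle only, at 78.9 and 63.6.

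YAP and TEAD target genes had 0 with osimertinib only, 4 (20% of those in a list) with vehicle only and 16 (80%) in both. For all promoter genes the vehicle only share was 27.4% and the share in both 55.0%. The YAP and TEAD median shift was -0.11, and PTPN14 was the strongest of the 4. Interferon and antigen presentation genes had 1 with osimertinib only, 4 (22.2%) with vehicle only and 13 (72.2%) in both, with a median shift of 0.64 that was -3.66 with neighbours counted. There IRF1, an interferon-induced transcription factor gene, stood at 51.9 with osimertinib and 85.7 with vehicle. Homeobox and related developmental genes were mostly unmarked, with 40 of 55 in neither list. Of 20 mesenchymal genes 14 were in neither list, 1 was listed with vehicle only and 5 in both, with TGFBR2 at 38.2 with osimertinib and 3.91 with vehicle. Of 10 neuroendocrine genes, ENO2 alone had a promoter region, and of 10 squamous genes, KRT15 alone, both with osimertinib only. Vehicle regions assigned to neighbours lay within 3 kb of both.

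The 5 strongest regions with osimertinib were at ACTG1 (cytoplasmic actin), MALAT1 (a nuclear noncoding RNA), IER2, TNRC18 and HES7. In the vehicle list those of ACTG1, IER2 and TNRC18 overlapped regions that ranked 9, 15 and 6, and that of HES7 one that ranked 166. The 5 strongest with vehicle were at MALAT1, TXNRD1 (thioredoxin reductase), ELF3 (an epithelial ETS factor), NEAT1 and KRT8. The strongest MALAT1 regions of the 2 lists did not overlap and lay 2042 bp apart, both assigned to a MALAT1 start. Those of TXNRD1 lay 817 bp apart.

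The osimertinib regions outside promoters without overlap were spread over many genes. Among genes with a symbol, none held more than 12 of the 2935. BCOR, a Polycomb corepressor gene on the X chromosome, had the most, 12 with osimertinib (40085327 to 40170281) and 4 with vehicle (40089579 to 40173119). TSC22D2 had 10 such regions with osimertinib over 120 kb of chromosome 3, and TXNRD1 had 9 over 168 kb. EGFR had 9 over 88.2 kb at its 5′ end (chromosome 7, 54980749 to 55068939), and 6 of them overlapped an H3K4me1 region of the osimertinib library. Another kind of locus was assigned to KSR1P1 (11 regions, chromosome 10, 41845305 to 42104730) and DEFB115 (9 regions, chromosome 20, 31053942 to 31242791), where the vehicle list had 0 regions. There 7 of the 11 and 7 of the 9 overlapped a KDM1A region, and 7 and 6 overlapped an H3K9me3 region, of the osimertinib libraries. Both stretches lie beside a centromere, and the part of such sequence in the result was not tested. NOP56P1 and RPL8P1, with 8 regions each, lie on chromosome 6 between 27623906 and 28808064.

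With vehicle, among genes with a symbol, the most regions of this kind were those of BCOR and of H3C9P, a histone pseudogene on chromosome 6, with 4 each. ZNF787, PIEZO1 and ZNF250 had 3 each, and PIM3, PLEC and ZNF614 had 2 each.

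H3K4me1 lay on a minority of these sites. Of the 2935 osimertinib regions outside promoters without overlap, 15.6% (14.3 to 17.0) overlapped an H3K4me1 region of the osimertinib library. Of the 553 vehicle regions of that kind, 22.8% (19.3 to 26.5) overlapped an H3K4me1 region of the vehicle library. The H3K4me1 lists held 6515 regions with osimertinib and 9761 with vehicle, so the shares rest on lists of different length. At promoters where the lists overlapped 3.66% of the osimertinib H3K4me3 regions overlapped osimertinib H3K4me1, and 14.1% of the vehicle H3K4me3 regions overlapped vehicle H3K4me1. Overlap with KDM1A was 4.16% for the osimertinib regions outside promoters without overlap and 0.542% for the vehicle ones, from lists of 8882 and 4731 KDM1A regions. Overlap with H3K9me3 was 4.22% and 3.25% in the same order.

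Marked starts were rich in CpG whichever list they were in. Of 22049 RefSeq windows of protein-coding genes, 1284 lay in a region with osimertinib only, 2974 with vehicle only, 4504 in both and 13287 in neither. The ratio of observed to expected CpG had a median of 0.828 for windows with osimertinib only, 0.847 with vehicle only, 0.881 in both and 0.504 in neither. A ratio over 0.6 was found in 80.7%, 86.9%, 92.4% and 44.3% of these windows in the same order. The printed windows lie along that range, from the EPHA2 start with 20 CpG dinucleotides (ratio 0.644) to the ACTG1 start with 50 (ratio 1.12).

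Short motifs were searched on both strands, and a window could hold several. GGGCGG (the GC box) was in 69.5% of windows with osimertinib only (67.0 to 72.1), 75.8% with vehicle only (74.2 to 77.3), 75.6% in both and 44.0% in neither, beside 56.2% of all windows. CCGGAAGT (ETS) was in 10.4% with osimertinib only (8.74 to 12.2), 7.63% with vehicle only (6.70 to 8.65), 10.6% in both and 2.51% in neither, beside 5.30% of all. TATAAA (the TATA box) was in 6.31% with osimertinib only (5.04 to 7.78), 3.93% with vehicle only (3.26 to 4.70), 4.196% in both and 12.9% in neither, beside 9.51% of all. For TGANTCA (AP-1), TGACGTCA (CRE), CACGTG (E-box), GGAATG (TEAD) and CCAAT the intervals of the windows with osimertinib only and with vehicle only overlapped: AP-1 was in 55 of the 1284 and 119 of the 2974, and in 6.16% of all windows. These are letters in a window and not bound sites.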

How the data were processed

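The authors deposited 1 table of annotated 2 kb regions per library, with a signal per region. The build is hg38 (GRCh38), and HISAT2, featureCounts and Bowtie2 2.3.4 are listed with no role, per the submitters' processing notes. How regions were called and the deposited signal scaled is not given in the sources used here, so signal was used only as a rank within a list. The authors' tables also give the distance to the nearest start, and a column of repeated widths whose meaning is not stated and which was not used. The 6 RNA and 2 IgG samples were not analysed here, and some genes that the rule names are not reported here. Gene identifiers matched a gene symbol for 99.7% of the osimertinib regions and 99.8% of the vehicle regions, and 3 and 6 gene names were deposited as dates, so genes were joined by identifier.

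Overlap was counted from 1 bp, shares carry 95% Clopper-Pearson intervals and differences Newcombe intervals, which cover counting error only. The depth of either library is unknown. Named genes were the 10 largest upward and 10 largest downward shifts among overlapping promoter genes at percentile 50 or above in a list, the 10 strongest single-list promoters each way with no other region within 3 kb, the 8 genes with most unmatched regions outside promoters each way, the 5 top regions of each list, and up to 4 shifted and 3 single-list members per group. Other members named, such as KRT8, FASN, EGFR, DUSP6, MKI67 or KMT2A, were chosen after their values were seen. Members and the 26 gene groups were chosen with earlier results of these data known. The values with neighbours within 3 kb and the tRNA and other small RNA counts were added after seeing the data. Overlap and rank calls were tested on simulated regions. The tools were Python 3.11.15 with pandas 2.3.3, matplotlib 3.10.9, scipy 1.17.1 and numpy 2.4.6.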

Additional observations from a re-analysis of the deposited data

How the results depend on the processing

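No paired analysis was possible because each treatment had 1 library, and for the same reason no replicate could be left out. Of osimertinib and of vehicle regions, the share overlapping the other list was 40.6% and 46.4% with at least 1000 bp required, 58.5% and 67.6% within 1 kb, 58.0% and 58.3% with equal numbers of the strongest regions, 59.0% and 67.1% in the stronger part (one in 2) of each list, and 53.1% and 61.8% with regions within 1 kb merged. The promoter share difference was -13.1 points with equal numbers and -10.7 in the stronger part. Genes with vehicle only numbered 1579, and in both 3468, in the stronger part. Shifts of 10 points gave 1269 genes higher and 1350 lower, and of 50 points 91 and 47. With signal summed over a gene's promoter regions 759 genes stood lower, against 505 higher, and with ranks among promoter regions alone 711 and 436, so the balance of the 2 directions depends on that choice. Those scalings set the median shift of all genes at -2.93 and -2.48, so groups were read relative to it. Of 21 groups 7 lay above the median of all genes and 14 below, but 11 and 10 under both of these scalings. Under each, p53 targets, chaperones, NFE2L2 and epithelial genes crossed the median of all genes. With neighbours counted, proteasome, interferon and epithelial genes did, and BCL2 family genes came 5 points or more closer to it. Of the osimertinib regions outside promoters without overlap, 18.2% had H3K4me1 within 1 kb, and 17.1% overlapped it with equal numbers. In the stronger part of each list a CpG ratio over 0.6 was found in 84.6% of windows with osimertinib only and 89.7% with vehicle only. Calls rest on lists cut at an unknown threshold and depth, so a gene missing from a list may be below it.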

Other observations

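Transfer RNA genes stood higher with osimertinib. These are short genes transcribed by RNA polymerase III, and they were looked at only after the data had been seen, with positions from RefSeq (GRCh38.p14). Of 443 tRNA genes, 169 lay in an osimertinib H3K4me3 region and 149 in a vehicle region, 94 of them in both. Their regions stood at a median percentile of 93.3 with osimertinib and 76.7 with vehicle. Of the 94 in both, 83 stood higher with osimertinib, with a median shift of 12.3 points, where 47.7% of the overlapping promoter genes stood higher. Of the 138 osimertinib regions that hold a tRNA gene, 50 lay at promoters with overlap and 11 at promoters without. A further 34 lay outside promoters with overlap and 43 outside promoters without. All overlapping regions outside promoters had a median percentile of 56.5 with osimertinib and 26.4 with vehicle. A higher place with osimertinib at overlapping sites outside promoters was therefore not particular to tRNA genes. At promoters, where the median shift of all overlapping genes was -0.46 points, tRNA genes were not compared apart. Regions that hold a tRNA gene made up 1.04% of the osimertinib list and 0.955% of the vehicle list, but 5.57% of the top decile with osimertinib (4.40 to 6.94) and 2.32% of that with vehicle (1.54 to 3.36). Many tRNA genes share a region, so they are not independent of each other.

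On chromosome 6, 69 tRNA genes lay in an osimertinib region and 44 in a vehicle region, and all 25 in both stood higher with osimertinib, with a median shift of 29.2 points. TRI-AAT5-3 stood at 91.3 with osimertinib and 8.47 with vehicle, and TRQ-CTG1-2 at 95.04 with osimertinib and 13.3 with vehicle. On chromosome 16, 9 of 11 stood higher, with a median shift of 23.6, and on chromosome 1, 11 of 12, with 12.2. The regions of CD83P1, RPL10P2 and FOXO1B named in the report also hold a tRNA gene. Small nucleolar RNA genes, which lie mostly in introns of host genes, had 74 in an osimertinib region and 74 in a vehicle region. Of the 36 in both 25 stood higher with osimertinib, with a median shift of 6.15. Of the 75 miRNA genes in both, 38 stood higher, with a median shift of 0.06.

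Of the autosomes, 1, 4, 6 and 10 held shares of the regions whose intervals did not meet. Chromosome 6 held 6.44% with osimertinib (6.02 to 6.87) and 4.92% with vehicle (4.54 to 5.33). Chromosome 1 held 11.005% with osimertinib (10.48 to 11.55) and 9.90% with vehicle (9.37 to 10.46). Chromosome 4 held 1.75% with osimertinib (1.54 to 1.99) and 2.26% with vehicle (2.00 to 2.55). Chromosome 10 held 2.67% with osimertinib (2.40 to 2.96) and 3.31% with vehicle (2.995 to 3.65). The Y chromosome held 12 regions with osimertinib, 11 of them outside promoters without overlap, and 0 with vehicle.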
